A study of Mus musculus with 12 samples.

Results

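Pol II occupancy in wild-type (WT) villus was compared with that in WT crypt of the mouse duodenum, using 3 Pol II ChIP-seq libraries of each, which are 6 of the 12 samples in the series. ChIP-seq maps the DNA fragments that an antibody, here one against RNA polymerase II, recovers from fixed chromatin. Both groups were adult WT mice that had received the oil vehicle (ethanol in corn oil) and no tamoxifen, and the labels give no strain, sex or exact age. Their epithelium was released in 3 mM EDTA over 35 minutes, and a 70 µm filter then held back the villi and let the crypts pass. The other Pol II libraries are from villus of Hnf4 double knockout mice. They enter here where group means were rebuilt from both of the authors' deposited tables, and apparently in the mean signal defined below. Whether a villus and a crypt library came from the same mouse is not stated. The p-values measure only the spread between libraries, and the knockout libraries may have entered that estimate. The comparison rests on the authors' deposited table of 6429 genes, all of which are members.

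The intestinal lining renews itself continuously. Stem cells at the crypt base divide under Wnt signals, their daughters divide further in the crypt, and the cells stop dividing and differentiate as they move onto the villus, where BMP signals prevail and absorptive enterocytes dominate. Pol II on a gene is a measure of transcription in progress or of polymerase held near the start, and it is not the amount of RNA. In a bulk fraction of this kind, more cells of a type and more Pol II per cell cannot be told apart.

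For each gene the authors' deposited table holds a mean signal, which is a count corrected for library size. The mean signal is the same in both deposited tables, so it appears to include the knockout libraries. The authors' deposited table also holds a log2 fold change, with the standard error (SE) given here after ±, and an adjusted p. It has no value per library, so that the overlap of single libraries cannot be described. Positive values mean more Pol II in villus, by the order of groups in the table's name. A gene was called higher in one group when the authors' adjusted p from DESeq2 was under 0.05. By that rule the authors' deposited table calls 1193 genes higher in villus (18.6% of genes tested) and 1210 higher in crypt (18.8%), and these shares are the background for every count below. The 2 sides differed in size of change: beyond 1 on the log2 scale, a 2-fold difference, stood 226 villus genes (3.52%) and 59 crypt genes (0.918%). The median change over all genes was -0.042. Group means for villus and crypt were rebuilt from the mean signal and the fold changes of both deposited tables. This assumes that the mean signal covers 3 groups of equal size, which the sources do not state, and the rebuilt means carry no error of their own.

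**Figure D1:**
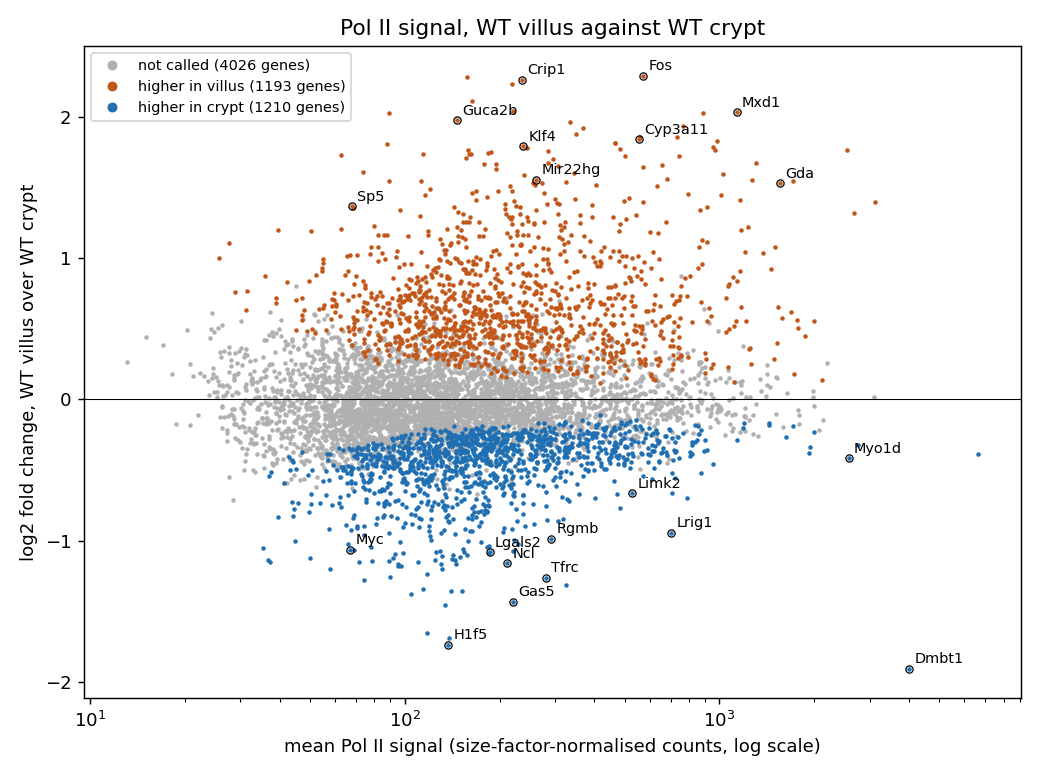
Each point is 1 gene, with its mean Pol II signal on a log axis and its log2 fold change in the authors' deposited table, WT villus over WT crypt. Orange points are the 1193 genes higher in villus and blue points the 1210 higher in crypt; the villus side reaches 2.29 (Fos), and the crypt side is flatter except for a few genes such as Dmbt1 at -1.91.

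The fractions were first set against cell type markers. In the authors' deposited table the villus side held 19 of 21 tested genes of fat absorption and 17 of 19 brush border enzymes, with none of either list higher in crypt. Among 14 tested genes of the Wnt pathway and crypt stem cells, 6 were higher in crypt and 2 in villus, and among 26 of the cell cycle 16 were higher in crypt and 2 in villus. Olfm4 and Lgr5, the usual stem cell markers, are not among the 6429 genes. Markers of other cell types were few: 4 of 32 immune genes, 1 of 25 of mesenchyme, muscle and endothelium, 1 of 13 of pancreatic acinar cells and 3 of 16 of tuft cells were in the authors' deposited table, and none of these 9 was called. Their mean signals ran from 41.5 to 253, so they are not at 0, and their part in the other results was not tested. Secretory markers were split. Of 11 goblet cell genes, 5 were higher in villus, among them Zg16 (1.03 ± 0.17), Muc2 (0.93 ± 0.17) and Fcgbp (0.92 ± 0.13), which encode parts of the mucus layer. Against them, 3 were higher in crypt, including Spink4 (-0.72 ± 0.10) and Agr2 (-0.66 ± 0.13), a disulfide isomerase needed for mucin folding. Paneth cells sit at the crypt base, and 2 of their 3 tested markers in the authors' deposited table were higher in crypt, Pla2g2a (-1.12 ± 0.19) and Cd24a (-0.82 ± 0.18). Of 3 enteroendocrine genes only Sct, encoding the hormone secretin, was called, and it was higher in villus (1.20 ± 0.22).

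The enterocyte transporters (29 of 38 higher in villus, none in crypt), the replication-dependent and linker histones (18 of 31 in crypt, 1 in villus) and the ribosomal proteins, treated below with the small nucleolar RNA hosts, showed the same division.

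Leaving aside fat absorption, brush border, ribosomal protein and histone genes, the strongest villus gene was Fos (chromosome 12, 86814840-86818224 on mm9), the inducible AP-1 subunit. Its rebuilt group mean was 1000.3 in villus and 204 in crypt, and the authors' deposited table gives 2.29 ± 0.24 (adjusted p = 1.03e-19). Crip1, a small LIM-domain protein abundant in the intestine, followed at 2.26 ± 0.22 in the authors' deposited table, with rebuilt means of 553 and 115. Pck1, the enzyme that commits carbon to gluconeogenesis, stood at 2.23 ± 0.21. The transcription factor gene Mxd1 was at 2.03 ± 0.26 in the authors' deposited table. Krt20, the keratin of differentiated enterocytes, was at 2.02 ± 0.20, and Guca2b, encoding the gut peptide uroguanylin that regulates salt and water secretion, at 1.98 ± 0.14. All 6 differed by about 4-fold to 5-fold, and at each the difference was more than 7 times its standard error.

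Further villus genes named by the same rule were a purine enzyme, transporters and a surface ligand. Ada, adenosine deaminase, had rebuilt means of 1749 in villus and 458 in crypt and a change of 1.93 ± 0.18 in the authors' deposited table. Selenop, a secreted carrier of selenium, was at 1.92 ± 0.16, and the neutral amino acid transporter Slc6a19 at 1.88 ± 0.19. Clec2e, a C-type lectin, was at 1.86 ± 0.40 with the largest standard error of the group. Slc13a2os, at 1.96 ± 0.23 in the authors' deposited table, lies across Slc13a2 (1.82 ± 0.23) on the other strand, and without strand the reads of the pair cannot be told apart. The window of Selenop likewise overlaps that of Ccdc152, and Clec2e has close paralogs between which reads may be split.

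Ranked by adjusted p instead of size, the villus side was led by enzymes. Cyp3a11, a steroid and drug hydroxylase, was at 1.84 ± 0.09 in the authors' deposited table (adjusted p = 1.19e-97), and Cndp2, a cytosolic dipeptidase, was second at 1.29 ± 0.08 (1.69e-59). Cyp3a25 followed at 1.72 ± 0.11 (2.22e-55), Gstm3, a glutathione transferase, at 1.35 ± 0.09 (9.51e-51), and the transcription factor Maf at 1.71 ± 0.11 (2.6e-50). Clca4a, Btnl6, Enpp7, Apob and Guca2b completed these 10. On the crypt side the same ranking was led by Limk2, a kinase that restrains actin turnover, at only -0.67 ± 0.05 in the authors' deposited table (adjusted p = 2.87e-31). Lrig1, a brake on EGF receptor signalling and a stem cell marker, was second at -0.94 ± 0.09 (3e-22). Cluh (adjusted p = 1.21e-18), which binds messenger RNAs of mitochondrial proteins, Nup88 (-0.57 ± 0.07) of the nuclear pore and Nomo1 (-0.57 ± 0.07) of the endoplasmic reticulum were also among the 10.

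Dmbt1 showed the largest difference towards crypt (chromosome 7, 138175583-138265142 on mm9). This gene encodes a secreted scavenger receptor of the gut surface. Its rebuilt group means were 632 in villus and 2369 in crypt, a 3.75-fold excess in crypt, and the authors' deposited table gives -1.91 ± 0.32 (adjusted p = 3.79e-08). The next genes outside the histones were noncoding transcripts that carry small nucleolar RNAs, described below. Tfrc, the transferrin receptor that imports iron into dividing cells, stood at -1.26 ± 0.20 in the authors' deposited table, with rebuilt means of 167 and 401. Ncl, encoding nucleolin, was at -1.16 ± 0.16. Ptma (-1.04 ± 0.23) and Serbp1 (-1.02 ± 0.17), a chromatin-associated acidic protein and an RNA-binding protein, and Rgmb (-0.99 ± 0.12), a BMP co-receptor, were close to 2-fold higher in crypt. Lgals2 was at -1.08 ± 0.21 in the authors' deposited table, and its window overlaps that of Cdc42ep1 (-0.81 ± 0.24). The related galectin gene Lgals3 went the other way at 1.38 ± 0.32, chosen for mention after its value was seen.

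Of 10 tested iron genes 4 were higher in villus, 1 (Tfrc) in crypt and 5 were not called. The authors' deposited table places the ferritin genes Ftl1 (1.05 ± 0.18) and Fth1 (0.99 ± 0.15), whose products store iron, and Slc46a1 (1.02 ± 0.17), a proton-coupled folate transporter of the duodenum that was first described as a haem carrier, in villus. Of 28 tested genes of fatty acid oxidation and peroxisomes, 5 were higher in villus, led by the peroxisomal enzyme gene Acaa1a (0.89 ± 0.14). Another 4 were higher in crypt, led by Cpt1a (-0.66 ± 0.08; adjusted p = 2.03e-13 in the authors' deposited table), the gate of fatty acid entry into mitochondria. Both shares, 17.9% and 14.3%, are near the background. Cholesterol and fatty acid synthesis had no called gene in villus and 2 of 11 in crypt, including the squalene synthase gene Fdft1 (-0.40 ± 0.15). This crypt share, 18.2%, is also near the background.

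**Figure D2:**
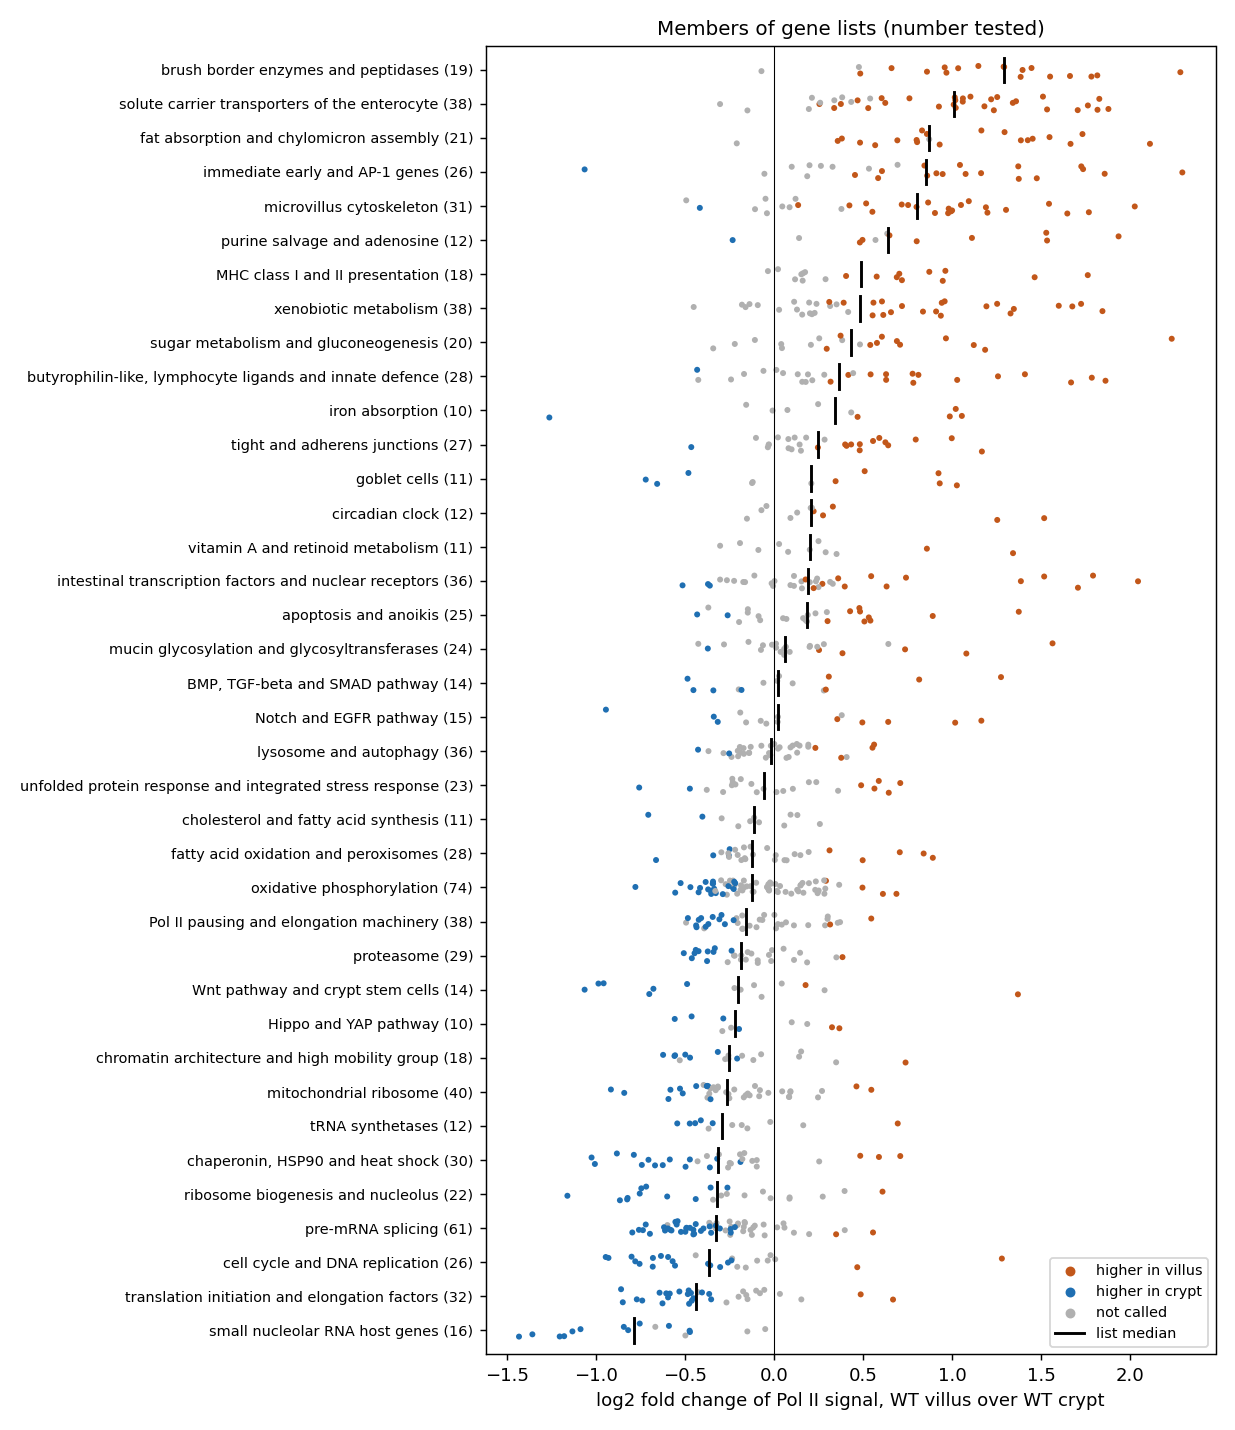
Each row is a gene list with at least 10 tested members; points are members by log2 fold change in the authors' deposited table (WT villus over WT crypt), coloured by call, and black ticks are list medians. Medians run from -0.79 (small nucleolar RNA host genes) to 1.29 (brush border enzymes), and of 39 such lists, 1 of them not drawn, 23 have more members higher in villus and 15 more higher in crypt.

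Nutrient and drug handling leaned to villus. Of 38 xenobiotic genes 21 were higher in villus and none in crypt (55.3% against a background of 18.6%), with a list median of 0.48. Abcc2, an export pump of the apical membrane, was at 1.67 ± 0.27 in the authors' deposited table. By symbol, 12 of 24 tested Cyp genes and 61 of 162 Slc genes were higher in villus, against 0 and 10 higher in crypt. These symbol families were formed after the values were seen. Of 12 purine salvage genes 8 were higher in villus, with a list median of 0.64. After Ada came the nucleoside transporter Slc28a2 (1.53 ± 0.18) and guanine deaminase Gda (1.53 ± 0.17). One member, Ampd3, was higher in crypt at -0.23 ± 0.09 in the authors' deposited table. Sugar metabolism had 11 of 20 genes higher in villus, including Pck1 and Gapdh (1.12 ± 0.24), and none higher in crypt.

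Structural genes of the differentiated cell were on the same side. The microvillus list had 22 of 31 genes higher in villus and a median of 0.80, including Actb (1.77 ± 0.25) and Slc9a3r1 (1.65 ± 0.15), the scaffold that ties transporters to ezrin. The single exception higher in crypt was Myo1d, a class I myosin (-0.42 ± 0.11 in the authors' deposited table). Tight and adherens junction genes were higher in villus in 13 of 27 cases, led by Cldn4 (1.17 ± 0.23), Cldn7 (1.00 ± 0.13) and Epcam (0.79 ± 0.18), and in crypt in 1, Marveld2 (-0.47 ± 0.10). Its window overlaps that of Rad17. Butyrophilin-like, lymphocyte ligand and innate defence genes (14 of 28 higher in villus, and Casp1 in crypt) and antigen presentation genes (10 of 18 and 0) followed, with H2-K1 at 1.76 ± 0.20, H2-D1 at 1.46 ± 0.19 and B2m at 0.96 ± 0.10. The class I genes have near-identical copies, and their values are uncertain for that reason.

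Transcription factors and immediate early genes differed strongly within their families. Of 26 immediate early and AP-1 genes 17 were higher in villus. After Fos these were led by Zfp36 (1.86 ± 0.22), which destabilises messenger RNAs, and Dusp6 (1.73 ± 0.19), a phosphatase of ERK. Only Myc was higher in crypt, at -1.06 ± 0.18 in the authors' deposited table (adjusted p = 2.93e-08), with rebuilt means of 42.9 and 89.6. Myc binds DNA with the partner MAX, for which the MXD and MXI proteins compete. Of 8 tested genes of this network, grouped after the values were seen, 4 were higher in villus in the authors' deposited table: Mxd1, Max (0.77 ± 0.06; adjusted p = 1.73e-37), Mxi1 (0.72 ± 0.10) and Mlx (0.64 ± 0.12). Mnt (0.04 ± 0.14), Mxd3 (0.44 ± 0.19) and Mlxipl (-0.16 ± 0.18) were not called. Intestinal transcription factors were higher in villus in 13 of 36 cases, including Klf4 (1.79 ± 0.23) and Maf. Only 3 were higher in crypt, including Cdx1 (-0.51 ± 0.16) and Onecut2 (-0.37 ± 0.09). The paralog Cdx2 was called higher in villus at 0.40 ± 0.09. Circadian clock genes gave 5 of 12 in villus and none in crypt, led by Nr1d1 (1.52 ± 0.25), whose window overlaps that of Thra, and Dbp (1.25 ± 0.15 in the authors' deposited table).

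Signalling pathway lists had called members on both sides. The Wnt and stem cell genes higher in crypt were Myc, Rgmb, Kcne3 (-0.96 ± 0.12), Lgr4 (-0.70 ± 0.16), Sox9 (-0.68 ± 0.18) and Axin2 (-0.49 ± 0.17) in the authors' deposited table. Sp5, a direct Wnt target in other tissues, was higher in villus at 1.37 ± 0.25 (adjusted p = 9.21e-07), with rebuilt means of 132 and 51.3. Of 14 BMP and SMAD genes 4 lay on each side. The inhibitory SMAD genes Smad7 (1.27 ± 0.11; adjusted p = 2.41e-27) and Smad6 (0.31 ± 0.07) and the target Id2 (0.81 ± 0.19) were higher in villus, while the receptor gene Bmpr1a (-0.49 ± 0.13) and the co-repressor gene Tgif1 (-0.45 ± 0.10) were higher in crypt. Of 15 Notch and EGFR genes 5 were higher in villus, including the ligand gene Hbegf (1.16 ± 0.20), the receptor inhibitor gene Errfi1 (1.02 ± 0.25) and the receptor gene Erbb3 (0.64 ± 0.14). Lrig1 and Maml1 (-0.34 ± 0.10), a Notch coactivator, were among the 3 higher in crypt. Hippo pathway genes were higher in crypt in 4 of 10 cases, with Vgll4 at -0.56 ± 0.09 and Mob1a at -0.46 ± 0.12, and in villus in 2, Amotl2 (0.37 ± 0.14) and Wwc1 (0.32 ± 0.10 in the authors' deposited table). Apoptosis genes gave 9 of 25 in villus, from the survival factor gene Mcl1 (1.37 ± 0.19) to the death effector gene Bak1 (0.54 ± 0.12), and 2 in crypt, including Casp1 (-0.43 ± 0.16).

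On the crypt side the lists with many called genes served growth. Pcna, the replication clamp, was at -0.95 ± 0.20 in the authors' deposited table, Cks2 at -0.93 ± 0.19 and Cdk4 at -0.80 ± 0.22. Against them Cdkn1a, encoding the cell cycle inhibitor p21, was higher in villus at 1.28 ± 0.23, as was Rfc5 at 0.47 ± 0.11. Translation factors were higher in crypt in 19 of 32 cases (59.4% against a background of 18.8%), led by Eif3a (-0.86 ± 0.13), Rack1 (-0.85 ± 0.17) and Eef1a1 (-0.77 ± 0.20). The exceptions were Eif1 (0.67 ± 0.14) and Eif6 (0.49 ± 0.13 in the authors' deposited table). Ribosome biogenesis genes were higher in crypt in 11 of 22 cases, with Nop56 (-0.87 ± 0.22) and Gnl3 (-0.83 ± 0.14) after Ncl, and in villus in 1, Dkc1 (0.61 ± 0.18), the pseudouridine synthase of nucleolar particles. The aminoacyl-tRNA synthetases had 5 of 12 in crypt, led by the mitochondrial Yars2 (-0.54 ± 0.15), while the mitochondrial Iars2 was higher in villus (0.69 ± 0.15). Only 7 of the 37 nucleotide synthesis genes were in the authors' deposited table, of which 4 were higher in crypt, including Mat2a (-0.61 ± 0.24) and Impdh2 (-0.48 ± 0.15).

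RNA processing and chaperones followed the same side. Of 61 splicing genes 31 were higher in crypt (50.8%), led by Hnrnpa1 (-0.80 ± 0.22), U2af1 (-0.76 ± 0.09) and Hnrnpd (-0.74 ± 0.17), and 2 in villus, Srsf5 (0.55 ± 0.15) and Ddx5 (0.35 ± 0.13 in the authors' deposited table). Chaperone genes gave 14 of 30 in crypt. The mitochondrial chaperonin pair Hspe1 (-1.03 ± 0.22) and Hspd1 (-1.01 ± 0.18) shares a promoter region with overlapping windows and so is not a pair of independent values. Dnajb9 (0.71 ± 0.19) and Dnajb1 (0.59 ± 0.12) were among the 3 chaperone genes higher in villus. Mitochondrial ribosome genes (11 of 40 in crypt, 2 in villus), oxidative phosphorylation genes (21 of 74 and 4) and proteasome genes (10 of 29 and 1) shifted less, with medians of -0.26, -0.13 and -0.18. Cytochrome c, encoded by Cycs (0.69 ± 0.16), and Ndufa6 (0.61 ± 0.16) were exceptions in villus, whereas Ndufb10 (-0.78 ± 0.15) led the crypt side in the authors' deposited table. Unfolded protein response genes (5 of 23 in villus, 2 in crypt) and glycosyltransferases (5 of 24 and 1) were near the background in villus, as were the vitamin A genes (2 of 11 and 0). Lysosome and autophagy genes were rarely called, with 4 of 36 in villus and 2 in crypt, which is below the background on both sides.

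The machinery of transcription was itself included. Of 38 genes of Pol II initiation, pausing and elongation, 12 were higher in crypt (31.6%) and 2 in villus. The crypt genes spanned initiation and elongation, with Ell3 (-0.48 ± 0.18), the Mediator gene Med1 (-0.44 ± 0.08) and the subunit gene Polr2j (-0.44 ± 0.14) first. The villus genes were Gtf2b (0.55 ± 0.11), encoding TFIIB, and the elongation factor gene Ell (0.31 ± 0.08 in the authors' deposited table). Chromatin genes gave 7 of 18 in crypt, with Anp32b (-0.62 ± 0.12), Hmgb1 (-0.56 ± 0.21) and the cohesin gene Rad21 (-0.56 ± 0.10), and 1 in villus, H3f3b (0.74 ± 0.18), which encodes the replication-independent histone H3.3. Among symbol families formed after the values were seen, Usp deubiquitinase genes (10 of 18 in crypt, 2 in villus), Rbm genes (10 of 19 and 1), Taf genes (6 of 12 and 0) and Zfp genes (23 of 89 and 6) leaned to crypt. The 13 tested olfactory receptor genes, which serve the nose, had no call in either direction and a median mean signal of 29.2, near the low end of the table.

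Small nucleolar RNAs (snoRNAs) guide the chemical modification of ribosomal RNA and are cut out of the introns of host genes. The named noncoding hosts gave 12 of 16 genes higher in crypt and none in villus, with a median of -0.79. Gas5 (-1.43 ± 0.26), Snhg1 (-1.36 ± 0.30) and Snhg5 (-1.20 ± 0.36) led them in the authors' deposited table. The rebuilt means of Gas5 were 111 in villus and 299 in crypt. The span of every gene was then searched for RefSeq snoRNA genes on either strand, a grouping added after the values were seen. Ribosomal protein genes that hold a snoRNA gene were higher in crypt in 28 of 30 cases (median -0.86), and those without one in 40 of 56 (median -0.66). Outside the ribosomal proteins and the named hosts, 113 tested genes held a snoRNA gene. Of these 47 were higher in crypt (41.6%) and 8 in villus (7.08%), with a median of -0.22, while the 6203 genes with none had 17.4%, 19.0% and -0.03. The median mean signal was 290 in the 113 and 144 in the 6203. Gene length was not compared between these groups, although the crypt share over all genes was larger in longer windows (below). The part of signal or length in these shares was not tested. The first of the 113 were 5730408K05Rik (-1.69 ± 0.24) and 1110038B12Rik (-1.36 ± 0.23), which hold Snora57 and Snord52, then Ncl. 5730408K05Rik overlaps Lbhd1 (-1.14 ± 0.16), which also spans Snora57, so these count the same reads in part. Protein genes among the 113 included Eif3a, Rack1 and the chaperonin gene Tcp1, which also stand on lists above.

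**Figure D3:**
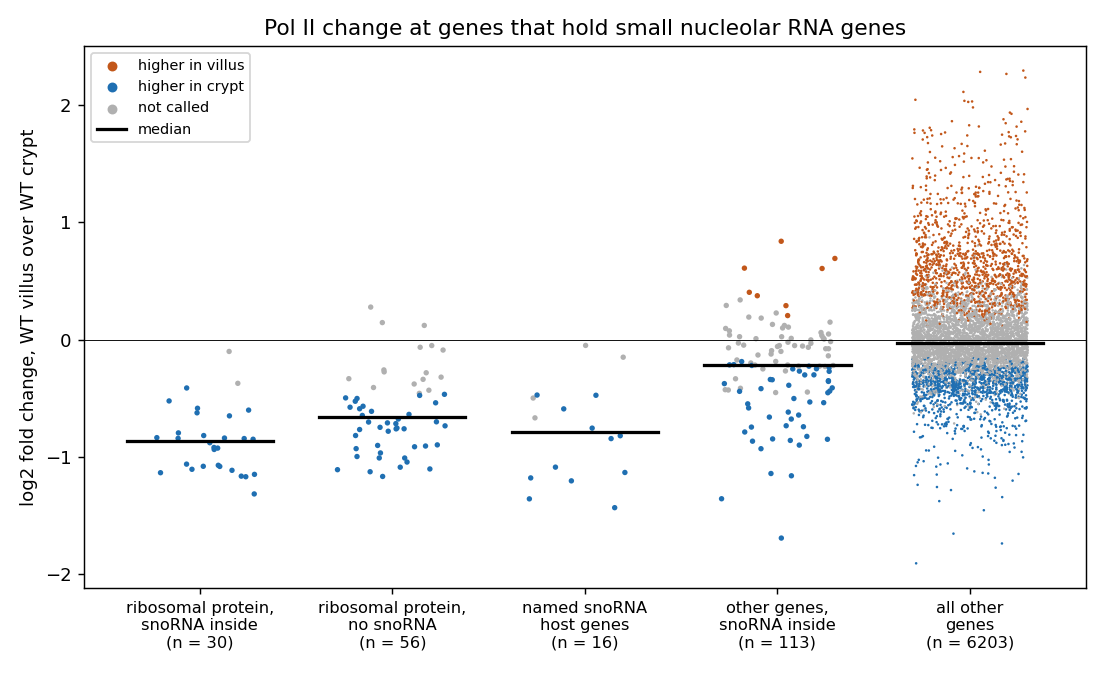
Each point is 1 gene by its log2 fold change in the authors' deposited table (WT villus over WT crypt), grouped by whether its RefSeq span holds a snoRNA gene, and black bars are medians. Points of the first 3 groups lie mostly below 0 (medians -0.86, -0.66 and -0.79), the 113 other hosts spread around -0.22, and all other genes centre on -0.03.

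MicroRNA genes inside tested genes showed no such lean. Of 208 genes with a RefSeq microRNA gene on their own strand, 35 were higher in villus (16.8%) and 46 in crypt (22.1%), close to the background. With either strand allowed, as for the snoRNAs, the shares of 271 genes were 18.1% and 21.4%. A few hosts are of interest for the microRNAs they carry. They were chosen after the values were seen, and Pol II on a host does not measure the mature microRNA. The mature sequences below are from RefSeq (GRCm38.p6), with the seed, bases 2 to 8, in capitals. Mir22hg, the host of miR-22, was at 1.55 ± 0.16 in the authors' deposited table (adjusted p = 9.19e-20), and Ctdsp1, host of miR-26b, was at 0.83 ± 0.20. In crypt, Mcm7 (-0.76 ± 0.11), a helicase subunit of DNA replication, holds miR-106b, miR-93 and miR-25, and Dleu2 (-0.45 ± 0.11) holds miR-16. The first 2 of the Mcm7 microRNAs share the seed AAAGUGC. The other, miR-25, shares AUUGCAC with miR-32, whose host Tmem245 was also higher in crypt (-0.35 ± 0.08).
miR-22-3p (Mir22hg, higher in villus): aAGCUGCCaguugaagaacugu
miR-26b-5p (Ctdsp1, higher in villus): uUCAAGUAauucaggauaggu
miR-106b-5p (Mcm7, higher in crypt): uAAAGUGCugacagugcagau
miR-93-5p (Mcm7, higher in crypt): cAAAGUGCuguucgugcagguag
miR-25-3p (Mcm7, higher in crypt): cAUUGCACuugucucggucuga
miR-32-5p (Tmem245, higher in crypt): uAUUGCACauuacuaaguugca
miR-16-5p (Dleu2, higher in crypt): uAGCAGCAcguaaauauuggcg

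Promoters of the 2 sides differed in base composition and in short motifs. A RefSeq promoter was found for 5174 of the genes, 954 of them higher in villus and 988 in crypt, and the 250 bases before the start were searched on both strands. The median number of CpG per 100 bases was 5.2 in villus genes, 7.2 in crypt genes and 6.4 over all tested, and promoters with under 2 CpG per 100 bases made up 20.6% of villus and 8.6% of crypt genes. The ETS motif CCGGAAG was in 8.81% of villus promoters (exact 95% interval 7.08 to 10.8), 17.9% of crypt promoters (15.6 to 20.5) and 14.7% over all genes tested. The share in villus genes was thus the one further from that of the genes tested. Over all 27025 RefSeq promoters, most of them of genes not in the table, it was 7.05%. The TATA box TATAAA was in 10.6% of villus promoters (8.71 to 12.7), 7.19% of crypt promoters (5.65 to 8.98) and 7.52% over genes tested (13% of all RefSeq promoters). AP-1 (TGANTCA) was in 6.92% of villus and 3.95% of crypt promoters, against 4.99% over genes tested (6.87% of all RefSeq promoters). The HNF4 core CAAAGTC was in 5.45% and 3.34%, against 3.52% over genes tested (3.8% of all). The HNF1 motif GTTAAT was in 5.35% and 2.83%, against 3.71% over genes tested (6.52% of all). In the 250 bases, of the 14 motifs only ETS and AP-1 had intervals of the 2 sides that did not overlap, and for AP-1 the gap was narrow (5.39 to 8.72 in villus, 2.82 to 5.36 in crypt). In the last 100 bases the AP-1 intervals overlapped, while those of ETS, TATA, the HNF4 core and HNF1 did not. For the CCAAT box, the GC box GGGCGG, the E-box CACGTG and the KLF motif CACGCCC, the 2 sides lay within each other's intervals in the 250 bases. In the last 100 bases this held except for KLF, at 10.1% in villus (8.23 to 12.1) and 8% in crypt (6.38 to 9.87). The intervals treat promoters as independent and cover counting error only, and CpG content moved with the ETS share; its part was not tested. Among genes that changed by more than 1 on the log2 scale the ETS shares were 7.22% of 180 villus and 10.4% of 48 crypt promoters, with intervals that overlap, and the TATA box was the more frequent in crypt, at 16.1% and 20.8%, again with overlapping intervals.

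**Figure D4:**
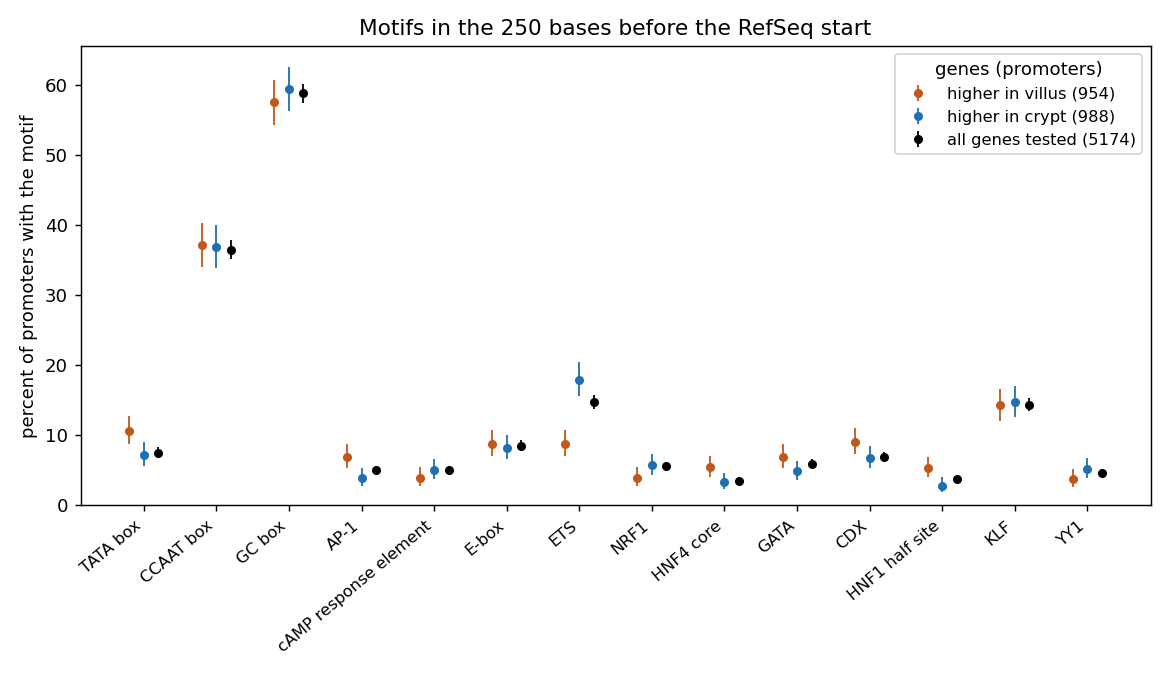
Points are the percent of promoters that hold each of 14 motifs in the 250 bases before the RefSeq start, for genes higher in villus (orange), higher in crypt (blue) and all genes tested (black); bars are exact 95% binomial intervals. The ETS motif shows the widest gap, 8.81% against 17.9%.

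The promoters below come from 1 side per motif, and that side was set, not found by ranking. Villus genes were used for the TATA box, AP-1, HNF4 core, HNF1 and CDX, and crypt genes for ETS and the CCAAT box. Within that side, each is of the most changed gene searched, not shown already, whose last 100 bases before the start hold the motif. For ETS the first 2 genes are given. In the same bases, 8 villus genes that changed by more than 1 also held ETS, and 49 held the CCAAT box. Sequences are on the gene's strand from RefSeq (GRCm38.p6), with the motif in capitals. They show what a match looks like and are not evidence that a factor binds there. The CDX motif TTTATNG shares bases with a TATA box in Krt20.
Fos, TATA box, chr12:85473790-85473889 (+): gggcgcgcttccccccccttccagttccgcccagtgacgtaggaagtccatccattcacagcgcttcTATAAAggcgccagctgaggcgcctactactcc
Clec2h, AP-1, chr6:128662285-128662384 (+): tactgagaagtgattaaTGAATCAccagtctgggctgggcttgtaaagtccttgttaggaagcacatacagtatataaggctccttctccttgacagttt
Akp3, HNF4 core, chr1:87124854-87124953 (+): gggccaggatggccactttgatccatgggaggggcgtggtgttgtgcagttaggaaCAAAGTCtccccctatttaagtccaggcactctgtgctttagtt
Guca2b, HNF1, chr4:119658946-119659045 (-): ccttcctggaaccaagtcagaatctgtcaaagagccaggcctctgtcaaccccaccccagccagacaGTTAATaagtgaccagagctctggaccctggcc
Krt20, CDX, chr11:99438154-99438253 (-): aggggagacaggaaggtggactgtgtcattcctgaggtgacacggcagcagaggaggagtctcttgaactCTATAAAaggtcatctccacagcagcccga
Hspe1, ETS, chr1:55088048-55088147 (+): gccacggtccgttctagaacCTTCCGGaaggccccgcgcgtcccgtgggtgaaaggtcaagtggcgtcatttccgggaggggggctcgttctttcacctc
Rps18, ETS, chr17:33955666-33955765 (-): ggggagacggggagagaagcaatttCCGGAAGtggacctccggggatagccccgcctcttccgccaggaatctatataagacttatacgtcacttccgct
H1f5, CCAAT box, chr13:21780626-21780725 (-): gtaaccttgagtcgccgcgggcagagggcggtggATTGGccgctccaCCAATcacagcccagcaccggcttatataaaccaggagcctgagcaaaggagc

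Promoter against gene body shifts could not be measured, because the deposited window counts carry no column names, but the windows' positions show what a gene body value would hold. Each promoter window was 402 bp around the start. On the plus strand the 19858 gene body windows began at a median of 350 bp inside the gene. In 3283 of 3717 genes with 1 transcript they were 850 bp shorter than the RefSeq gene. On the minus strand the 21190 windows reached a median of 350 bp beyond the start, and in 4414 of 4857 such genes they were 850 bp longer than the gene. All 21190 minus-strand windows contain their own promoter window, and none of the 19858 plus-strand windows does. No gene body window is shorter than 1001 bp, so 2544 plus-strand and 716 minus-strand promoter windows have no gene body window. The authors' deposited table does not say which windows it used, but of 6409 genes with a promoter window all except 4 had a gene body window too.

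The called genes were then counted by strand and span. Only genes with a gene body window were counted, which are 3057 of the 3061 plus-strand genes in the authors' deposited table. The class up to 1851 bp held 257 minus-strand genes. It could hold no plus-strand gene, because one so short has no gene body window. Of the replication-dependent and linker histone genes in the authors' deposited table, 27 lie on the minus and 4 on the plus strand. Genes higher in crypt made up 16.8% of 3057 plus-strand and 20.6% of 3348 minus-strand genes, while genes higher in villus made up 18.4% and 18.7%. The share higher in crypt was larger on the minus strand in every span class that both strands share except 2500 to 4000 bp. With window length the share higher in crypt grew from 11.5% in the shortest of 10 bins of window length to 24.6% in the longest. The share higher in villus was 14.7% in the shortest and 20% in the longest, without a steady rise (19.2% in bin 2, 14.4% in bin 3). The median standard error fell from 0.23 to 0.10 across the same bins, and the median change was -0.05 at both ends.

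**Figure D5:**
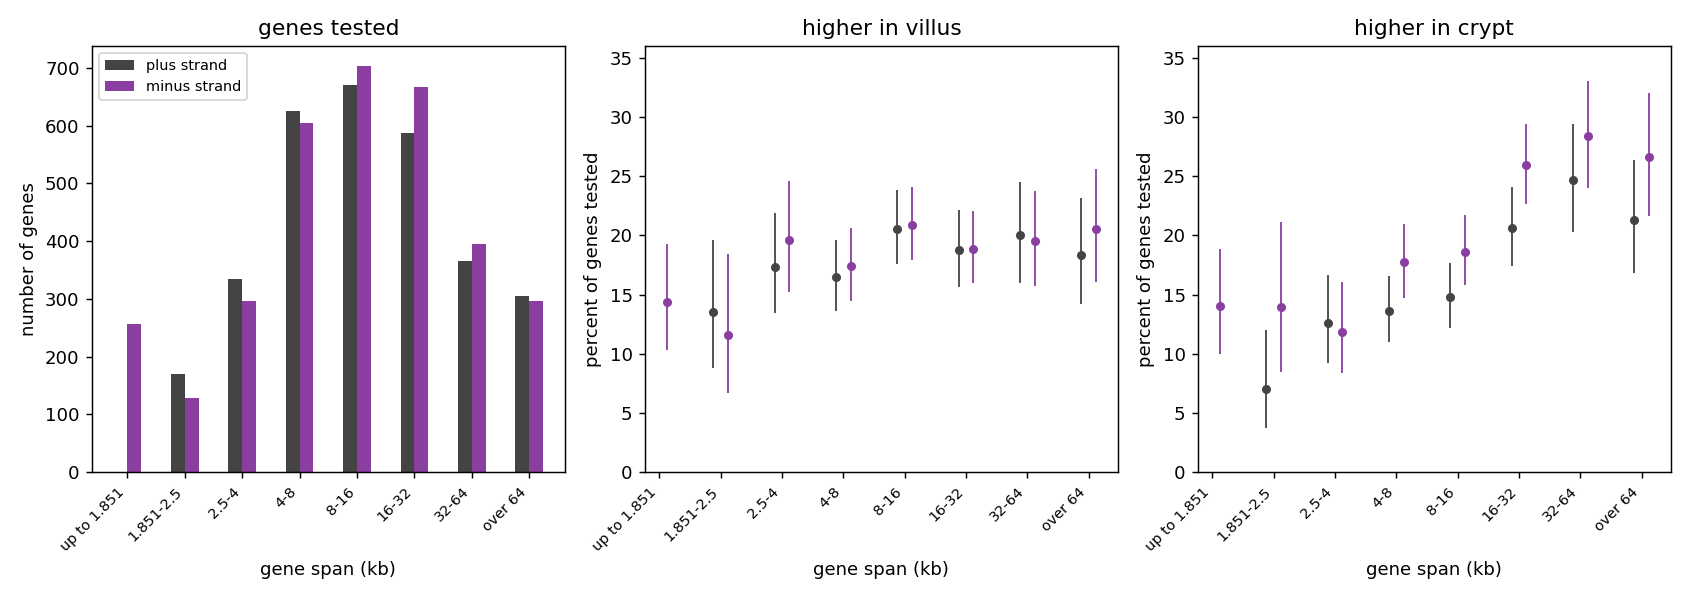
Left, bars give the number of genes tested by gene span in kb and strand; middle and right, points give the percent of those genes called higher in villus and in crypt in the authors' deposited table, with exact 95% binomial intervals. Only genes with a gene body window are counted, so the shortest class, with 257 minus-strand genes, cannot hold a plus-strand gene. The crypt share is highest at 32 to 64 kb on both strands (24.7% plus, 28.4% minus), not in the longest class.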

How the data were processed

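Pol II ChIP-seq was done on 3 WT villus and 3 WT crypt libraries. Per the submitters' processing notes the authors used Bowtie2 2.2.6 on mm9, SAMtools 0.1.19, Picard, featureCounts and DESeq2 1.36.0. Per the file headers, featureCounts 2.0.3 counted read pairs of mapping quality 30 or more with duplicates ignored, assigned a pair to every window it overlapped, and used no strand option. The 18 per-library columns of the window tables have no names, could be matched to no library and were used in no step; window positions and lengths were read from these deposited files. Depth per library was not analysed here. The authors deposited per gene a mean signal (size-factor-normalised coverage), a log2 fold change with its standard error, a Wald score and a raw and adjusted p-value. The deposited scores equalled the ratio of fold change to error within 8.71e-08, and the adjusted p-values the Benjamini-Hochberg values over 6429 genes within 3.76e-07. Whether the fold changes were shrunken, and how many libraries entered the fit, is not stated.

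From these tables, Python scripts with pandas 2.3.3 and scipy 1.17.1 counted called genes (adjusted p under 0.05), list medians and motif shares. The test against a limit was tested on simulated data. The rebuilt means were checked on simulated data with 3 equal groups, which tests the arithmetic and not the assumption that the deposited mean covers such groups. Of 6429 symbols 6418 matched RefSeq by symbol or unique synonym. Gene positions are those of the windows (mm9); reads of overlapping genes cannot be told apart.

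The lists, and the comparison itself, were chosen with earlier results of these data known. Genes were named by rule: per direction the 12 largest changes at or above the median signal outside fat absorption, brush border, ribosomal protein and histone genes, and the 10 smallest adjusted p-values; per list the 3 largest called members with the median's direction and 2 against. Some genes and 1 list under this rule are not reported here. Other genes and the symbol, MAX, snoRNA and microRNA groups were chosen after their values were seen. Alternatives were a stricter p, a larger change, a test against 0.5, centring, a signal of 100, leaving out overlapping genes, and each strand alone.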

Additional observations from a re-analysis of the deposited data

How the results depend on the processing

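No paired analysis was possible because the results come from the authors' deposited comparison and the per-library columns carry no names. For the same reason the planned fits of promoter counts, gene body counts and their ratio (edgeR or DESeq2 normalization, filters, leaving out replicates, the replicate block, all libraries, transcript choice) were not run. Of 2403 called genes, 285 changed by more than 1 (226 in villus, 59 in crypt) and 252 passed a test against changes up to 0.5 (222 and 30), so the crypt side consists mostly of smaller changes. An adjusted p under 0.01 left 803 in crypt and 936 in villus. Centring gave 1356 in villus and 951 in crypt. Each strand alone with p adjusted within it, chosen after seeing the data, gave 1065 called on the plus strand (555 and 510) and 1326 on the minus (629 and 697), out of fewer genes tested. Lists with more members in crypt numbered 15, and 3 under either size limit. List medians near 0 changed sign: BMP to -0.0215 on the minus strand, Notch and EGFR to -0.0123 there and without overlapping genes, the unfolded protein response to 0.0129 on the plus strand, and lysosome to 0.0217 when centred, to 0.0218 at a signal of at least 100 and to 0.0006 on the minus strand. No named gene reversed, but the alternatives reuse the same fold changes, and only centring on the median of -0.042 moved them. Of 187 named genes, 109 lost their call at changes beyond 1 and 118 in the test against 0.5. For changes beyond 1 the motif shares were 10.4% in crypt for ETS, 16.1% and 20.8% for TATA, 8.89% in villus for AP-1, and 10% and 10.4% for the HNF4 core. In 100 bases they were 5.97% and 11.5%, 6.18% and 2.94%, 2.83% and 1.52%, and 2.94% and 0.911%. (The pairs are in the order ETS, TATA, AP-1 and HNF4 core, villus first.) With the size limit the orders of TATA and of the HNF4 core turned in 250 bases, with overlapping intervals (HNF4 core 6.04 to 15.3 in villus and 3.47 to 22.7 in crypt). With the limit in 100 bases they did not turn (TATA 12.2% and 10.4%, HNF4 core 5% and 2.08%). The cause was not tested.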
